A study of Mus musculus with 8 samples.

Results

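The 6 miRNAs described here are mmu-miR-31-5p and mmu-miR-489-3p, known from quiescent satellite cells, mmu-miR-221-3p and mmu-miR-222-3p, known from proliferating myoblasts, and mmu-miR-675-5p and mmu-miR-675-3p, the arms of a precursor made from the H19 transcript (the species prefix mmu, for mouse, is mostly left out below). They were taken by name from the 1881 mouse miRNAs on the array. Of the 6, 2 were detected on all 8 arrays, 1 on 7 arrays and 3 on none, so 3 of 6 were detected on any array, against 586 of 1881 (31.2%) over the whole array. Culture medium was profiled with 1-colour Agilent miRNA arrays, in which Cy3-labelled small RNA gives an intensity per miRNA.

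The samples were medium from transwell co-cultures of primary leg-muscle myocytes of mouse pups 1 to 3 days old, all labelled male, with cells in a bottom chamber and in an insert that shared the medium. G93A/G93A medium (n = 3) came from cells carrying human SOD1 with the G93A mutation (B6SJL(Tg-SOD1*G93A)1Gur/J, a mouse model of amyotrophic lateral sclerosis) in both chambers. G93A/WT medium (n = 3) came from G93A cells in the bottom chamber and, in the insert, cells carrying wild-type human SOD1 (B6SJL(Tg-SOD1)2Gur/J). In units of 1e5 cells, 2.5 were seeded in the bottom chamber and 1.5 in the insert. G93A/WT was therefore seeded with more G93A than wild-type SOD1 cells, and in it genotype and chamber cannot be told apart. WT/WT medium (n = 2) came from wild-type SOD1 cells in both chambers. Every group therefore carried a human SOD1 transgene, overexpressed in colonies bred from hemizygous males, and non-transgenic cells were not analysed here. Per the series' design text the cultures came from different mice and each sample is a biological replicate. Supernatant was taken at 2 days in vitro, the time at which medium with 10% foetal bovine serum gave way to medium with 2% horse serum. Which of these was sampled is not stated, and a probe would also bind a serum miRNA whose sequence is the same as in mouse. The amount of a miRNA in medium reflects the number of releasing cells and the release per cell, which cannot be told apart. The arrays do not read that amount: a fixed 150 ng of small RNA was labelled per sample, so a signal reflects a share of it.

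Satellite cells are the stem cells of skeletal muscle. They rest in quiescence beside the fibre, are activated by injury or explantation, proliferate as myoblasts and then leave the cell cycle to fuse. In mouse satellite cells miR-31 holds the mRNA of the myogenic factor Myf5 untranslated, and miR-489 represses the proliferation factor Dek and maintains quiescence. miR-221 and miR-222 repress the cell cycle inhibitor Cdkn1b and decline when myoblasts differentiate. miR-675 is cut from H19, an imprinted noncoding RNA that rises with differentiation, and its arms repress Smad and cell cycle genes in mouse myoblasts.

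The mature sequences are shown because the array reads each arm separately and because sequence family and detection did not go together. They are from RefSeq (GRCm38.p6), which matched all 6 miRNAs, and are written 5′ to 3′ with the seed, bases 2 to 8, in capitals.
miR-221-3p: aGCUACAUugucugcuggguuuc
miR-222-3p: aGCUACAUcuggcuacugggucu
miR-31-5p: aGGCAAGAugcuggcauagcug
miR-489-3p: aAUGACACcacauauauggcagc
miR-675-5p: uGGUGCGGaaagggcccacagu
miR-675-3p: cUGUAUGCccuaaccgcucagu
miR-1928, same seed as miR-221-3p: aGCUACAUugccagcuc
miR-425-5p, same seed as miR-489-3p: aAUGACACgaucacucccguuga

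miR-221-3p and miR-222-3p shared a seed and their first 8 bases, and were identical at 11 of 23 positions without gaps. Their precursors lay 504 bases apart on the minus strand of chromosome X, Mir221 at chrX:19146294-19146388 and Mir222 at chrX:19146893-19146971, with no other annotated gene across either. Yet miR-221-3p was detected on 8 of 8 arrays and miR-222-3p on 0 of 8. miR-1928, the only other mouse miRNA with that seed in RefSeq, was also detected on no array. RefSeq matched 1608 of the 1881 mouse miRNAs on the array, and the seeds of the rest were not compared. miR-489-3p, detected on no array, shared its seed with miR-425-5p, which was detected on all 8. miR-31-5p and the miR-675 arms shared their seeds with no other mouse miRNA in the RefSeq table.

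Mir675 lay inside the H19 gene (precursor chr7:142577064-142577147, gene chr7:142575530-142578146). Its 3p arm was detected on all 8 arrays and its 5p arm on none. This was also the pattern of miR-221, and it was found for 72 of the 723 precursor names with both arms on the array (9.96%). The 5p arm alone was detected on all 8 arrays for 168 (23.2%), and neither arm on any array for 345 (47.7%). Mir489 lay inside Calcr, the calcitonin receptor gene and a marker of quiescent satellite cells (precursor chr6:3721897-3722003, gene chr6:3685678-3764713). Neither arm of miR-489 was detected, and neither was either arm of miR-653, whose precursor lies 511 bases from it. Mir31 lay inside the interval of the noncoding gene Gm49890 (precursor chr4:88910557-88910662). The other arms, miR-221-5p, miR-222-5p, miR-31-3p and miR-489-5p, were detected on 0 of 8 arrays each.

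An undetected miRNA is listed at 0.1 in the files, which is no measured level. The lowest signal of any detected miRNA ran from 1.34 to 1.52 intensity units on the G93A/G93A arrays, from 1.48 to 1.59 on the G93A/WT arrays and from 1.31 to 1.40 on the WT/WT arrays. For miR-222-3p, miR-489-3p and miR-675-5p the data therefore give no level and no fold. Detection is judged per miRNA, so these 3 may lie above those lowest signals.

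For the detected members the deposited signals are given with the scanner software's own error. mmu-miR-221-3p stood at 16.6 ± 2.06, 19.6 ± 2.16 and 35.9 ± 3.02 units on the G93A/G93A arrays 1 to 3. On the G93A/WT arrays it stood at 33.9 ± 2.96, 62.7 ± 4.88 and 49.5 ± 3.91 units, and on the WT/WT arrays at 28.0 ± 2.59 and 23.4 ± 2.68 units. Before scaling, both dimmer G93A/G93A arrays thus lay below every other array and G93A/WT 2 lay highest.

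mmu-miR-675-3p stood at 26.4 ± 2.43, 31.0 ± 2.31 and 48.0 ± 3.26 units on the G93A/G93A arrays. It stood at 44.5 ± 3.08, 80.3 ± 5.36 and 56.5 ± 3.80 units on the G93A/WT arrays, and at 26.0 ± 2.09 and 30.7 ± 2.66 units on the WT/WT arrays. Here too G93A/WT 2 was the brightest array.

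mmu-miR-31-5p was far closer to its detection limit. It stood at 3.85 ± 0.995 and 3.62 ± 1.06 units on G93A/G93A 1 and 3 and was not detected on G93A/G93A 2. On the G93A/WT arrays it stood at 4.37 ± 1.08, 8.40 ± 1.31 and 6.14 ± 1.18 units, and on the WT/WT arrays at 3.19 ± 0.931 and 4.84 ± 1.06 units. Its signal was 3.41 to 6.40 times its error where detected, and no miRNA was called detected below 3 times its error. The same ratio ran from 8.06 to 12.8 for miR-221-3p and from 10.8 to 15.0 for miR-675-3p.

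**Figure D1:**
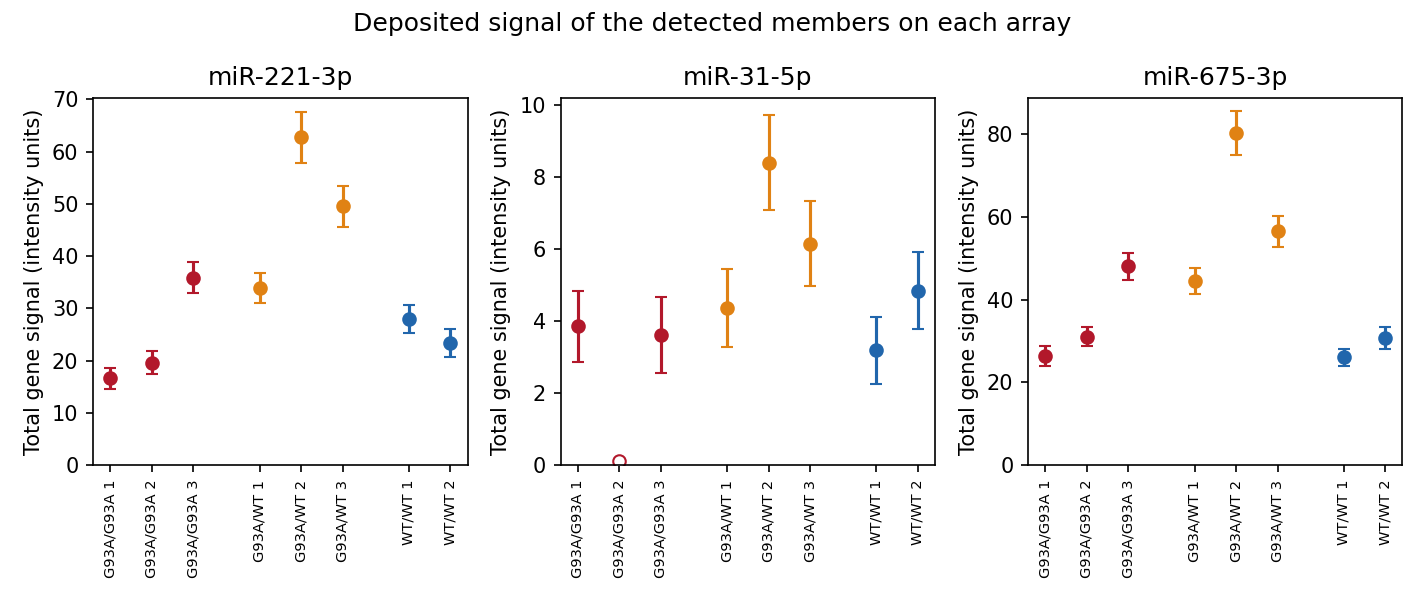
Deposited total gene signal (linear intensity units, vertical axis) of miR-221-3p, miR-31-5p and miR-675-3p on each of the 8 arrays (horizontal axis), with bars for the scanner software's error and an open circle for an undetected value. G93A/WT 2 holds the highest signal in each panel (62.7, 8.40 and 80.3 units), and miR-31-5p is undetected on G93A/G93A 2.

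The arrays differed in overall brightness. The sum of detected signals ran from 119252 to 135152 on the G93A/G93A arrays, from 143713 to 202908 on the G93A/WT arrays and from 115122 to 139644 on the WT/WT arrays, and 451 to 483, 497 to 563 and 450 to 461 miRNAs were detected in the same order of groups. Each array was therefore scaled to one 75th percentile over the 423 miRNAs detected on all 8 arrays, and log2 was taken above a floor of 0.60. The values below are on this scale. Among muscle miRNAs, miR-206-3p, miR-133b-3p, miR-133a-3p and miR-1a-3p were detected on all 8 arrays, miR-499-5p on 1 and miR-208b-3p on none. The summed scaled signal of these 6 ran from 4094 to 5063 units in G93A/G93A, from 4341 to 5258 in G93A/WT and from 4522 to 5194 in WT/WT.

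None of the 3 tested members passed in any of the 3 comparisons (limma, Benjamini-Hochberg adjusted p under 0.05 over 538 miRNAs), and 0 had an unadjusted p under 0.05. Over all 538 tested miRNAs, 143 had an unadjusted p under 0.05 between G93A/G93A and WT/WT, 132 for G93A/WT against WT/WT and 173 for G93A/G93A against G93A/WT. Between G93A/G93A and WT/WT 8.55% of all 538 tested miRNAs passed (3.72% higher, 4.83% lower). Between G93A/WT and WT/WT 3.9% passed (3.16% higher, 0.743% lower), and 10.6% did so for G93A/G93A against G93A/WT (5.39% higher, 5.2% lower). The groups did not overlap for 40.7% of the tested miRNAs between G93A/G93A and WT/WT (18% higher, 22.7% lower), for 45.4% in the comparison of G93A/WT with WT/WT (19.3% higher, 26% lower) and for 34.8% in that of G93A/G93A with G93A/WT (15.6% higher, 19.1% lower). The 3 comparisons share arrays and are not independent. With 2 or 3 arrays a group, a p that misses the threshold does not show that levels were alike, and the intervals below give what each difference could be.

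miR-221-3p, which favours proliferation, had log2 scaled signals of 4.26, 4.68 and 5.13 in G93A/G93A, of 4.98, 5.22 and 5.22 in G93A/WT and of 5.33 and 4.72 in WT/WT. The groups overlapped in each comparison. The mean was 4.69 ± 0.43 in G93A/G93A (SD, n = 3). G93A/WT averaged 5.14 ± 0.14 (SD, n = 3) and WT/WT 5.03 ± 0.43 (SD, n = 2). The difference was −0.34 ± 0.28 between G93A/G93A and WT/WT (SE, limma adjusted p = 0.504, 95% interval −0.999 to 0.33). It was 0.11 ± 0.28 between G93A/WT and WT/WT (SE, limma adjusted p = 0.820, interval −0.55 to 0.78). Between G93A/G93A and G93A/WT it was −0.45 ± 0.25 (SE, limma adjusted p = 0.251, interval −1.04 to 0.14).

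The spread of miR-221-3p within G93A/G93A and within WT/WT exceeded the measuring error, which on the log2 scale was 0.11 to 0.18 per array. The value turned on which WT/WT array was used. Without WT/WT 2 the difference from WT/WT was −0.64 for G93A/G93A and −0.19 for G93A/WT, and without WT/WT 1 it was −0.034 for G93A/G93A and 0.42 for G93A/WT. The arrays filled 2 rows of 1 slide, row 1 with WT/WT 1 and the G93A/WT arrays, row 2 with WT/WT 2 and the G93A/G93A arrays. Within its row G93A/G93A differed from WT/WT 2 by −0.034 and G93A/WT differed from WT/WT 1 by −0.19, and neither passed. Each of these sets 3 arrays against a single WT/WT array, so the spread in the test comes from the other group alone. G93A/G93A and G93A/WT never shared a row, and with the row as a block their difference was 0.15 in place of −0.45 (limma adjusted p = 0.916). Only WT/WT had arrays in both rows, so a blocked value for these 2 groups depends on the gap between WT/WT 1 and WT/WT 2. Without G93A/G93A 1 and without the block, the difference between G93A/G93A and G93A/WT was −0.24.

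miR-675-3p, the detected product of H19, had log2 scaled signals of 4.93, 5.34 and 5.55 in G93A/G93A, of 5.38, 5.57 and 5.41 in G93A/WT and of 5.22 and 5.12 in WT/WT. All G93A/WT arrays lay above both WT/WT arrays. Such a gap in this direction was found for 19.3% of the tested miRNAs in that comparison, which the count for miR-675-3p has to be read against. The G93A/G93A arrays overlapped both other groups.

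The mean of miR-675-3p was 5.28 ± 0.31 in G93A/G93A (SD, n = 3). G93A/WT averaged 5.45 ± 0.10 (SD, n = 3) and WT/WT 5.17 ± 0.077 (SD, n = 2). G93A/G93A differed from WT/WT by 0.10 ± 0.18 (SE, limma adjusted p = 0.798, 95% interval −0.33 to 0.54), by 0.16 within row 2, against WT/WT 2 alone, and by −0.031 without G93A/G93A 3. G93A/WT differed from WT/WT by 0.28 ± 0.18 (SE, limma adjusted p = 0.358, interval −0.15 to 0.72), and within row 1, against WT/WT 1 alone, by 0.23. G93A/G93A differed from G93A/WT by −0.18 ± 0.17 (SE, limma adjusted p = 0.480, interval −0.57 to 0.21), by −0.070 with the row as a block, by −0.0081 without G93A/G93A 1 and by −0.32 without G93A/G93A 3. Its intervals were the narrowest of the 3 detected members.

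miR-31-5p, the quiescence miRNA, had log2 scaled signals of 2.15 and 1.82 on 2 G93A/G93A arrays, and G93A/G93A 2, where it was undetected, was set to the floor of 0.60. It stood at 2.03, 2.32 and 2.21 in G93A/WT and at 2.195 and 2.45 in WT/WT. All G93A/G93A arrays lay below both WT/WT arrays, a gap found in this direction for 22.7% of the tested miRNAs in that comparison. The gap was not there in the authors' deposited table, where G93A/G93A 1 (4.84 intensity units) lay above WT/WT 1 (4.74). G93A/WT overlapped both other groups.

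The mean of miR-31-5p was 1.52 ± 0.82 in G93A/G93A (SD, n = 3, with the undetected array at the floor), 2.18 ± 0.15 in G93A/WT (SD, n = 3) and 2.32 ± 0.18 in WT/WT (SD, n = 2). G93A/G93A differed from WT/WT by −0.80 ± 0.42 (SE, limma adjusted p = 0.268, 95% interval −1.80 to 0.19). It differed from G93A/WT by −0.66 ± 0.38 (SE, limma adjusted p = 0.261, interval −1.55 to 0.23). G93A/WT differed from WT/WT by −0.14 ± 0.42 (SE, limma adjusted p = 0.847, interval −1.13 to 0.86). G93A/G93A 2 decided the size of these differences: without it G93A/G93A differed from WT/WT by −0.34 and from G93A/WT by −0.20. Within row 2 G93A/G93A differed from WT/WT 2 by −0.93, within row 1 G93A/WT differed from WT/WT 1 by −0.010, each against that single array, and none of these passed. The measuring error of miR-31-5p, 0.23 to 0.42 on the log2 scale per array where detected, was larger than the SD within G93A/WT or WT/WT.

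**Figure D2:**
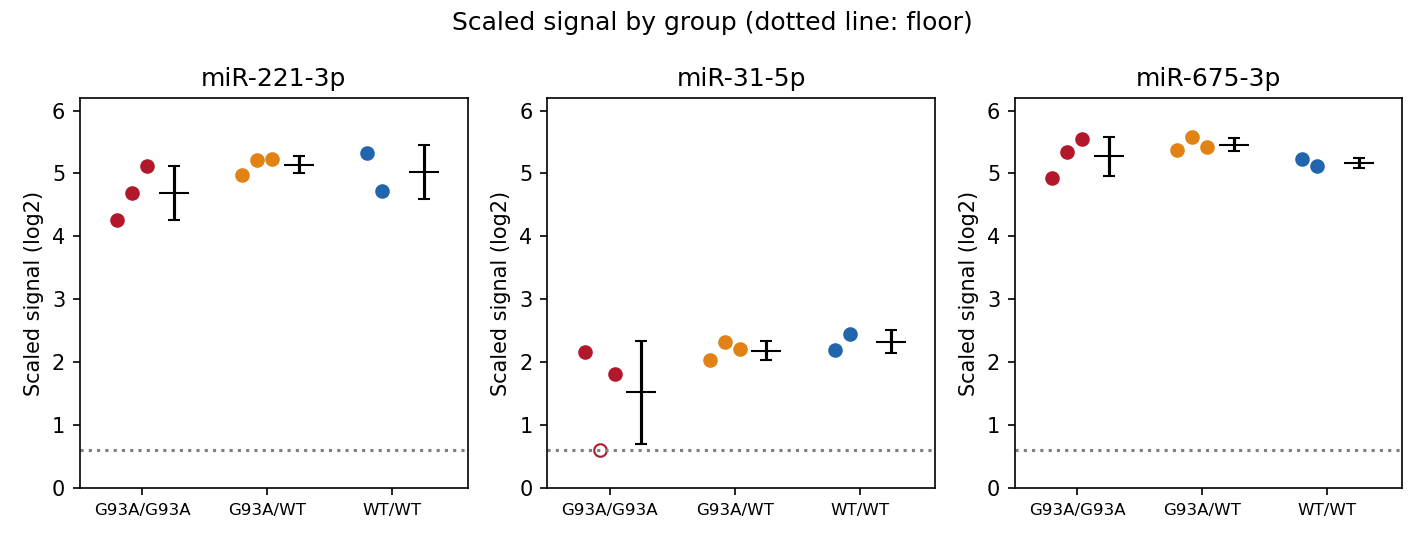
Log2 scaled signal (vertical axis) of the 3 detected members in G93A/G93A, G93A/WT and WT/WT medium, 1 point an array, with the mean and SD in black and the floor of 0.60 as a dotted line (open circle, undetected). miR-675-3p in G93A/WT lies above both WT/WT arrays, the groups of miR-221-3p overlap, and 1 G93A/G93A array of miR-31-5p lies at the floor.

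**Figure D3:**
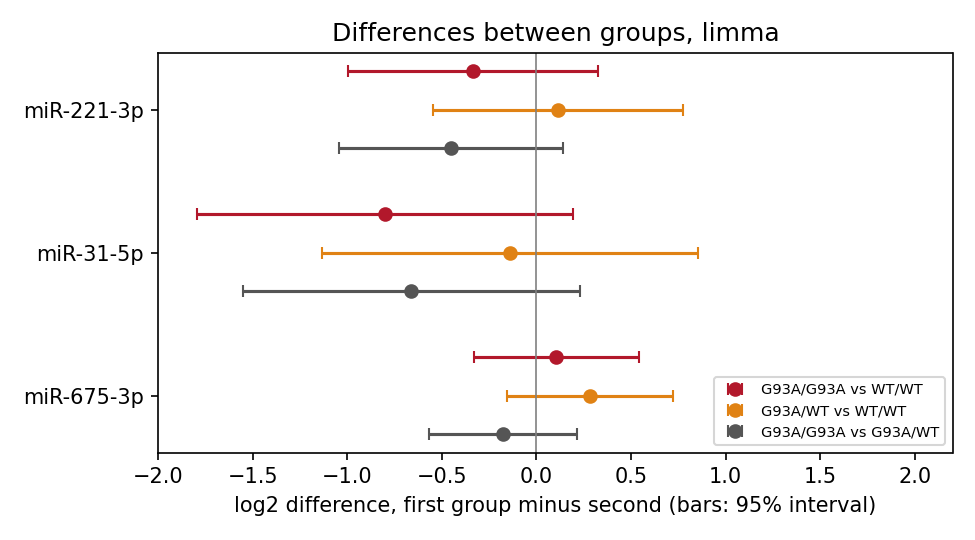
Log2 difference (horizontal axis, first group minus second) of each detected member in the 3 comparisons, with 95% intervals from limma. Each of the 9 intervals includes 0, and those of miR-31-5p are the widest, reaching −1.80.

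Put in order of mean level, miR-221-3p and miR-675-3p were highest in G93A/WT, while miR-31-5p was highest in WT/WT. miR-221-3p and miR-31-5p were lowest in G93A/G93A, and miR-675-3p was lowest in WT/WT. No neighbours in these orders passed limma's test. In the authors' deposited table, whose normalization is unknown here, miR-221-3p ran from 20.8 to 35.0 intensity units in G93A/G93A, from 30.1 to 39.6 in G93A/WT and from 27.3 to 38.6 in WT/WT. In the authors' deposited table miR-31-5p was 0.343 on G93A/G93A 2, against 2.23 to 5.07 on the other 7 arrays.

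Over the 8 arrays the mean-centred log2 signal of miR-221-3p spanned 1.07, at the 79th percentile of the 423 miRNAs detected throughout, whose median span was 0.69. That of miR-675-3p spanned 0.64. The profiles nearest to miR-221-3p were those of miR-369-5p, miR-30a-5p and miR-22-3p, at a root-mean-square difference of 0.126, 0.128 and 0.131, against a median of 0.389 over the 422 others. Those nearest to miR-675-3p were miR-323-3p (0.0888), the erythroid miR-451a (0.0989) and the muscle miR-133b-3p (0.104), against a median of 0.290. miR-221-3p and miR-675-3p differed from each other by 0.234. These 8 arrays share a slide and a scaling, and the nearest of many profiles is near in part by selection.

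miR-425-5p, which carries the seed of miR-489-3p, averaged 3.52 ± 0.43 in G93A/G93A (SD, n = 3). G93A/WT averaged 4.12 ± 0.21 (SD, n = 3) and WT/WT 4.09 ± 0.044 (SD, n = 2). It differed by −0.58 ± 0.25 between G93A/G93A and WT/WT (SE, limma adjusted p = 0.198) and by −0.60 ± 0.22 between G93A/G93A and G93A/WT (SE, limma adjusted p = 0.127), and did not pass. Without G93A/G93A 3 both passed (−0.82, limma adjusted p = 0.0392, against WT/WT, and −0.84, 0.0174, against G93A/WT), and without scaling the second did (−1.21, 0.0309). It passed in no other alternative, so in 1 of 24 against WT/WT and 2 of 23 against G93A/WT. Without scaling 149 of all tested miRNAs passed in the second comparison.

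The 9 other miRNAs grouped with quiescence were miR-195a-5p, miR-497a-5p, miR-708-5p, miR-27a-3p, miR-27b-3p, miR-322-5p, miR-503-5p, miR-127-3p and miR-16-5p. A place in this group does not mean that each of them marks quiescent satellite cells. Of the 9, 8 lay below zero between G93A/G93A and WT/WT. All 9 belong to the 290 tested miRNAs numbered below 1000, of which 58.3% lay below zero. The median of the 9 was −0.25, against −0.0061 over all 538 tested and −0.11 over the 290. The 9 include close relatives such as miR-27a-3p and miR-27b-3p, so they are not 9 independent readings. Their signs and medians were not tested as a set. Of the 9, 1 was lower and 8 did not pass, while 4.83% of all 538 were lower. The 1 was miR-127-3p, made from the imprinted Dlk1-Dio3 locus, at 7.001 ± 0.064 in G93A/G93A (SD, n = 3) against 7.63 ± 0.074 in WT/WT (SD, n = 2), a difference of −0.63 ± 0.11 (SE, limma adjusted p = 0.0211). Its call was lost without WT/WT 1 (−0.58, adjusted p = 0.135), without WT/WT 2 (−0.68, 0.0775) and without G93A/G93A 2 (−0.59, 0.0592), all limma, and with the slide row as a block (−0.58, adjusted p = 0.135 in limma). It was also lost within row 2 (0.142), with the replicate block (0.103), without scaling (−0.47, 0.658), with no filter (0.0578) and with miRNAs below and from 1000 centred apart (0.0587, limma adjusted p throughout), and held in 15 of 24 alternatives. Between G93A/WT and WT/WT none of the 9 passed and 8 lay above zero, as did 170 of the 290 numbered below 1000. The 1 below zero was miR-127-3p (−0.51, limma adjusted p = 0.0530). The median of the 9 was 0.26, against 0.043 over all tested and 0.076 over the 290. Between G93A/G93A and G93A/WT none passed and 9 lay below zero, as did 69.3% of the 290. The median was −0.38, against −0.095 over all tested and −0.20 over the 290. The 8 below zero between G93A/G93A and WT/WT became 7 with the row as a block (median −0.12). They became 6 without G93A/G93A 1 (median −0.053) and 5 without scaling. The 8 above zero between G93A/WT and WT/WT became 6 with the row block, with scaling on the median and with the replicate block. Blocking on the slide row left 6 of the 9 below zero between G93A/G93A and G93A/WT (median −0.32). So did centring miRNAs numbered below and from 1000 apart (median −0.21). At an unadjusted p under 0.05, 2, 2 and 3 of the 9 were found in the 3 comparisons in this order, close to the share of 143, 132 and 173 of 538 over all tested miRNAs.

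Of 8 other miRNAs grouped with activation and proliferation, 2 were lower and 6 did not pass between G93A/G93A and WT/WT, where 4.83% of all 538 tested were lower. The median of the 8 was −0.20, against −0.0061 over all tested and −0.11 over those numbered below 1000, to which all 8 belong. At an unadjusted p under 0.05 in limma, 3, 2 and 3 of the 8 were found in the 3 comparisons, against 143, 132 and 173 of 538. miR-125b-5p, known to restrain myoblast differentiation, stood at 9.03 ± 0.097 in G93A/G93A (SD, n = 3) against 9.83 ± 0.064 in WT/WT (SD, n = 2), a difference of −0.79 ± 0.11 (SE, limma adjusted p = 0.00929). miR-431-5p stood at 4.53 ± 0.11 in G93A/G93A (SD, n = 3) against 4.99 ± 0.096 in WT/WT (SD, n = 2), a difference of −0.46 ± 0.11 (SE, limma adjusted p = 0.0489). It represses Pax7 in mouse myoblasts, so its place in this group does not mean that it favours proliferation. The group is mixed in another way, since miR-133a-3p in it is also counted above among muscle miRNAs. The call of miR-125b-5p was lost without WT/WT 1 (−0.84, limma adjusted p = 0.0725), which is also its value with the row as a block, and without WT/WT 2 (−0.75, 0.0561). It was also lost within row 2 (0.142) and without scaling (−0.63, 0.489), and held in 19 of 24 alternatives. That of miR-431-5p held in 7 of 24 alternatives. Without any 1 array its limma adjusted p was above 0.05, except without G93A/G93A 3.

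miR-682, which supports proliferation of mouse satellite cells, was the 1 miRNA of that group called between G93A/WT and WT/WT. It stood at 5.55, 7.46 and 6.07 intensity units on the G93A/WT arrays and was detected on neither WT/WT array, where both values were set to the floor (limma adjusted p = 0.000494). It entered the test only through the arrays that detected it, 3 of them G93A/WT, so its p is that of a miRNA the detection filter had selected, and no fold is given. The call was lost with quantile scaling (adjusted p = 0.0826) and with the authors' deposited values (adjusted p = 0.516), both in limma. The other 7 did not pass, and 3.16% of all tested were called higher. The median of the 8 was −0.062, against 0.043 over all tested and 0.076 over those numbered below 1000. On the G93A/G93A arrays miR-682 was detected once, at 1.74 units. Between G93A/G93A and G93A/WT miR-682 differed by −1.58 ± 0.10 (SE, limma adjusted p = 0.000290). It was detected on 1 of 3 G93A/G93A arrays and 0 of 2 WT/WT arrays, and the others were set to the floor, without spread. The fitted size, the SE and the p of miR-682 therefore depend on the floor in each comparison. In the same comparison of G93A/G93A with G93A/WT, miR-431-5p differed by −0.42 ± 0.10 (SE, limma adjusted p = 0.0379). The other 6 of 8 did not pass, and 5.2% of all tested were called lower. The median of the 8 was −0.30, against −0.095 over all tested and −0.20 over those numbered below 1000. With the row as a block miR-682 differed by −1.58 (limma adjusted p = 0.0848) and miR-431-5p by −0.28 (0.633). The miR-682 call was also lost with quantile scaling (−1.10, 0.0648) and with the authors' deposited values, where the difference was −0.25 (limma adjusted p = 0.915). miR-431-5p held this second call in 7 of 23 alternatives, and no single G93A/WT, WT/WT or G93A/G93A array could be left out without losing it, except G93A/G93A 3.

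The Igf2 gene next to H19 hosts miR-483, and both arms were detected on all 8 arrays. miR-483-5p averaged 7.72 ± 0.13 in G93A/G93A (SD, n = 3). G93A/WT averaged 7.46 ± 0.031 (SD, n = 3) and WT/WT 7.81 ± 0.084 (SD, n = 2). It differed by −0.35 ± 0.11 between G93A/WT and WT/WT (SE, limma adjusted p = 0.110), a value that was 0.42 without scaling, and neither arm passed in any comparison.

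Markers of other cells differed in part between the groups. The summed scaled signal of 7 epithelial miRNAs ran from 0 to 5.36 units in G93A/G93A, from 61.2 to 85.0 in G93A/WT and from 138 to 166 in WT/WT, with miR-200a-3p and miR-141-3p detected on no array. The 5 detected ones were called lower in G93A/G93A against WT/WT (limma), where 4.83% of all tested were lower. They were also called lower against G93A/WT, where 5.2% of all tested were. With the row as a block 0 of all tested miRNAs passed between G93A/G93A and G93A/WT. None of the 5 was called between G93A/WT and WT/WT. Of the 5, miR-203-3p, miR-200b-3p, miR-200c-3p and miR-429-3p were detected on no G93A/G93A array and stand there at the floor. They were tested only through the groups where they are high, while miR-205-5p was detected on 2 of 3 G93A/G93A arrays. The summed scaled signal of 5 fibroblast miRNAs ran from 343 to 430, from 415 to 553 and from 475 to 517 units in the same order, with miR-199a-5p called lower in G93A/G93A against WT/WT (−0.85, limma adjusted p = 0.0291). That of 3 leukocyte miRNAs ran from 131 to 159 in G93A/G93A, from 133 to 146 in G93A/WT and from 99.3 to 107 in WT/WT. It rested on miR-223-3p, called higher in G93A/G93A against WT/WT (0.52, limma adjusted p = 0.0433), since miR-142a-3p and miR-150-5p were detected on no array. That of 4 erythroid and serum miRNAs ran from 927 to 1386 in G93A/G93A, from 1260 to 1422 in G93A/WT and from 1015 to 1085 in WT/WT. It rested mostly on miR-451a, miR-144-3p was detected on no array, and none of the 3 tested passed. Against WT/WT, miR-451a differed by 0.24 in G93A/G93A and 0.45 in G93A/WT, miR-122-5p by 1.16 and 1.10, and miR-486a-5p by −0.29 and −0.32. Of 2 endothelial miRNAs, miR-126a-3p passed in no comparison and miR-126a-5p was detected on no array. The part of these markers of other cells in the values of the members and in the differences of miR-127-3p, miR-125b-5p, miR-431-5p and miR-682 was not tested.

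**Figure D4:**
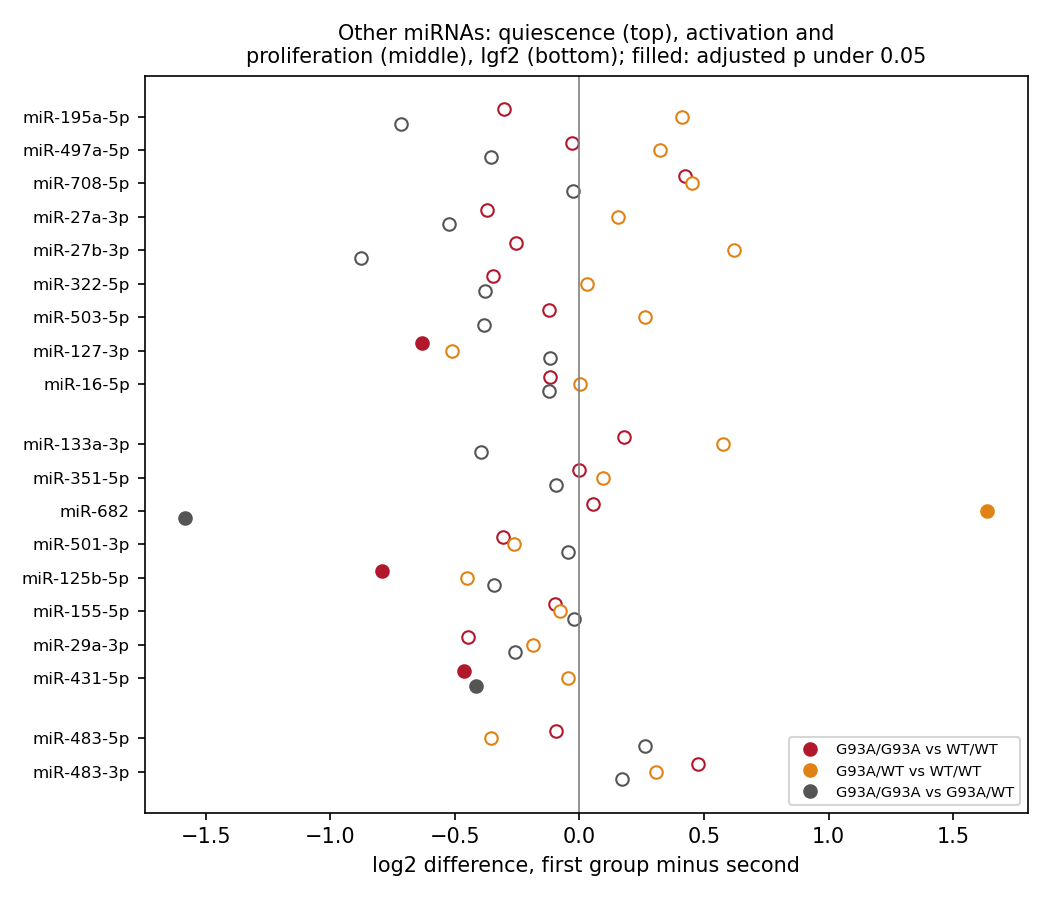
Log2 difference (horizontal axis, first group minus second) in the 3 comparisons, filled where the limma adjusted p is under 0.05. Shown are 9 other miRNAs grouped with quiescence, 8 others grouped with activation and proliferation, and both arms of miR-483. The filled points are miR-127-3p, miR-125b-5p and miR-431-5p, lower in G93A/G93A against WT/WT, miR-682, higher in G93A/WT than in WT/WT, and miR-682 and miR-431-5p, lower in G93A/G93A than in G93A/WT.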

How the data were processed

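Per the labels' protocols, about 600 µl of medium went into each TRIzol LS extraction and 150 ng of RNA of miRNA size into labelling. Per the file headers, the 8 deposited array files hold a linear intensity for every miRNA, the software's error of it and a flag of 0 or 1 for detection. Which software version read the arrays, and how it treated background, is unknown here. The authors' deposited table of processed values is also an intensity. It holds 492 mouse miRNAs with array medians of 23.2 to 26.5. Its log2 values correlated with the scanner values at r = 0.970 to 0.999 across the miRNAs of an array, so scale and direction are known and it is not centred, but its normalization is unknown.

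From the files, signals were scaled to a common 75th percentile, taken from the 423 mouse miRNAs that every array detected (scale factors 0.593 to 1.44) and floored at 1.52 units (log2 0.60). The 538 miRNAs detected on at least 2 arrays were tested with limma 3.58.1 in R 4.3.3 (lmFit, eBayes, 3 groups in 1 fit, prior df 1.96), adjusted by Benjamini-Hochberg with a threshold of 0.05. The script was tested on simulated data. A 95% interval uses limma's moderated SE. No litter or culture day is named in the labels. Named are the members, miRNAs with a member's seed, the 3 nearest profiles, and, of each list of muscle miRNAs, the brightest and those that passed, besides markers of other cells. The members and lists were chosen with earlier results of these data known.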

Additional observations from a re-analysis of the deposited data

How the results depend on the processing

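The number of members called was 0 in every alternative for G93A/G93A against WT/WT (24 alternatives). It was 0 in 23 of 24 for G93A/WT against WT/WT and in 22 of 23 for G93A/G93A against G93A/WT, the exceptions being fits without scaling, with 1 call (miR-675-3p, 1.05, adjusted p = 0.0467) and 2 calls (miR-221-3p, −1.06, and miR-31-5p, −1.15). There the median of all tested miRNAs lay at 0.79 and −0.68. The signs of miR-31-5p (0.63) and miR-483-5p (0.42) between G93A/WT and WT/WT were then reversed. The sign of miR-221-3p between G93A/WT and WT/WT was reversed within row 1, with a block for the slide row and without WT/WT 2 (−0.19 each), and with the replicate number as a block (−0.015), and between G93A/G93A and G93A/WT with the row as a block (0.15). That of miR-675-3p between G93A/G93A and WT/WT was reversed without G93A/G93A 3 (−0.031). Leaving out 1 array at a time gave −0.19 to 0.42 for this miR-221-3p value and −0.031 to 0.28 for this miR-675-3p value. The cause was not tested.

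Of all tested miRNAs, 46 passed between G93A/G93A and WT/WT. The count was 14 without scaling, 18 with miRNAs below and from 1000 centred apart, 29 among those detected on all 8 arrays, 10 with no filter, 17 with 2 groups alone, 7 with the row as a block, 10 with the replicate block and 9 within row 2. For G93A/WT against WT/WT, 21 passed, with 130 without scaling, 5 with the authors' values, 34 with the floor at 2 times its value, 0 in limma among those detected on all arrays (103 at an unadjusted p under 0.05), 37 with detection on at least 1 array, 9 with no filter, 43 with 2 groups alone and 8 with the replicate block. For G93A/G93A against G93A/WT, 57 passed, with 149 without scaling, 0 in limma with the row as a block (73 at an unadjusted p under 0.05) and 37 with the replicate block. Leaving out 1 array gave 7 to 57, 7 to 61 and 38 to 122 in the same order, and 0 members throughout. The replicate block changed no member's call. Same-numbered arrays deviated from their group means at correlations of −0.35 to 0.21, and differently numbered arrays at −0.21 to 0.32. With so few arrays these correlations cannot decide whether same-numbered samples share more than a number. The splits into higher and lower were 20 and 26, 17 and 4, and 29 and 28, and scaling on the median gave 5 and 28, 16 and 11, and 28 and 27, against 19 and 19, 6 and 9, and 29 and 25 with quantile normalization. Scaling on the 75th percentile over all mouse miRNAs was not run, since on 3 arrays that percentile is the value listed for undetected miRNAs. Signal close to the detection limit restricts what can be said of miR-31-5p.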
